A study of Mus musculus with 23 samples.

Results

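RNA of 7 genes that carry growth signals between the supporting cells, the vessels and the epithelium of the lung was followed in 23 left lungs: the ligands Fgf7, Fgf18, Hgf, Igf1 and Pdgfb, and the Wnt receptors Fzd4 and Lrp6. They were taken by gene name from a NanoString nCounter mouse myeloid panel of 734 endogenous and 20 housekeeping genes, in which colour-coded probes are counted on RNA without amplification, and all 7 were among the 711 genes tested. Mice had received organic dust extract by instillation 14 times, with PBS, the saline vehicle, in control mice, and RNA came from the left lobe after lavage, that is, from tissue whose free airway cells had been washed out. Fat-1 mice carry a transgene from Caenorhabditis elegans for a desaturase, which makes omega-3 from omega-6 fatty acids in the mouse's own cells, while WT (wild-type) mice lack it. The dust groups held 3 Fat-1 males, 3 Fat-1 females, 3 WT males and 4 WT females, and the saline groups 3 Fat-1 males, 2 Fat-1 females, 3 WT males and 2 WT females. The labels used here give no age and no promoter for the transgene. Lungs had been extracted on a second day (11 lungs, 5 dust and 6 saline) or on a first day (12 lungs, 8 dust and 4 saline), called day 2 and day 1.

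Alveoli are kept and repaired by signals that pass between neighbouring cell types. Fibroblasts release FGF7 and HGF, which act on epithelial receptors, FGF18 is a mesenchymal factor of alveolar growth, and endothelial PDGF-B draws pericytes to vessels. IGF1 is made by macrophages and fibroblasts and acts on many cells. Wnt ligands signal to beta-catenin through a Frizzled receptor such as FZD4, which is abundant on endothelium and also binds norrin, together with a co-receptor, LRP5 or LRP6.

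Values are normalized counts: each lung's probe counts were multiplied by that lung's scale factor, between 0.682 and 4.21, with a floor of 20. Recovered counts ran from 110453 to 812429 per lung. Counts under 20 before scaling, and values under 20 after it, were recorded as 20. Fold changes are on the scale of log2(value + 1), and p-values from limma were adjusted by Benjamini-Hochberg across the 711 tested genes, with 0.05 as the threshold. The tissue label was met by the markers of lung epithelium and endothelium, since Cdh1, Lamp3, Cdh5 and Tek were above the floor in all 23 lungs. Technical measures set 6 lungs apart: 2 had a saturation message, 2 had scale factors over 3, and 2 had unusual positive controls. The last pair held Fat-1 female dust lung 2 of day 1, which gave the lowest value of all dust lungs for 4 of the 5 members that fell, and results that rest on it are given without it as well. The title, characteristics and extract code gave different groups for 4 lungs, of which 3 differed in genotype, and the extract code was followed. The other, WT male saline lung 2 of day 2, differed in exposure and sex. Its title names a WT female dust lung, while its characteristics match its code.

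Dust lungs held less RNA of 5 members, more recorded Igf1, and a level of Lrp6 that did not pass the test. Fzd4, Fgf7, Fgf18, Hgf and Pdgfb fell, by 0.41 to 0.88 on the log2 scale, in lungs where higher calls were more common than lower ones. Across the panel 9.99% of the 711 genes were called lower and 43.3% higher in dust. The median log2 fold change was −0.47 over the 7 members and 0.26 over all tested genes. The members were chosen with earlier results of these data known, so their count against the panel is a description.

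**Figure D1:**
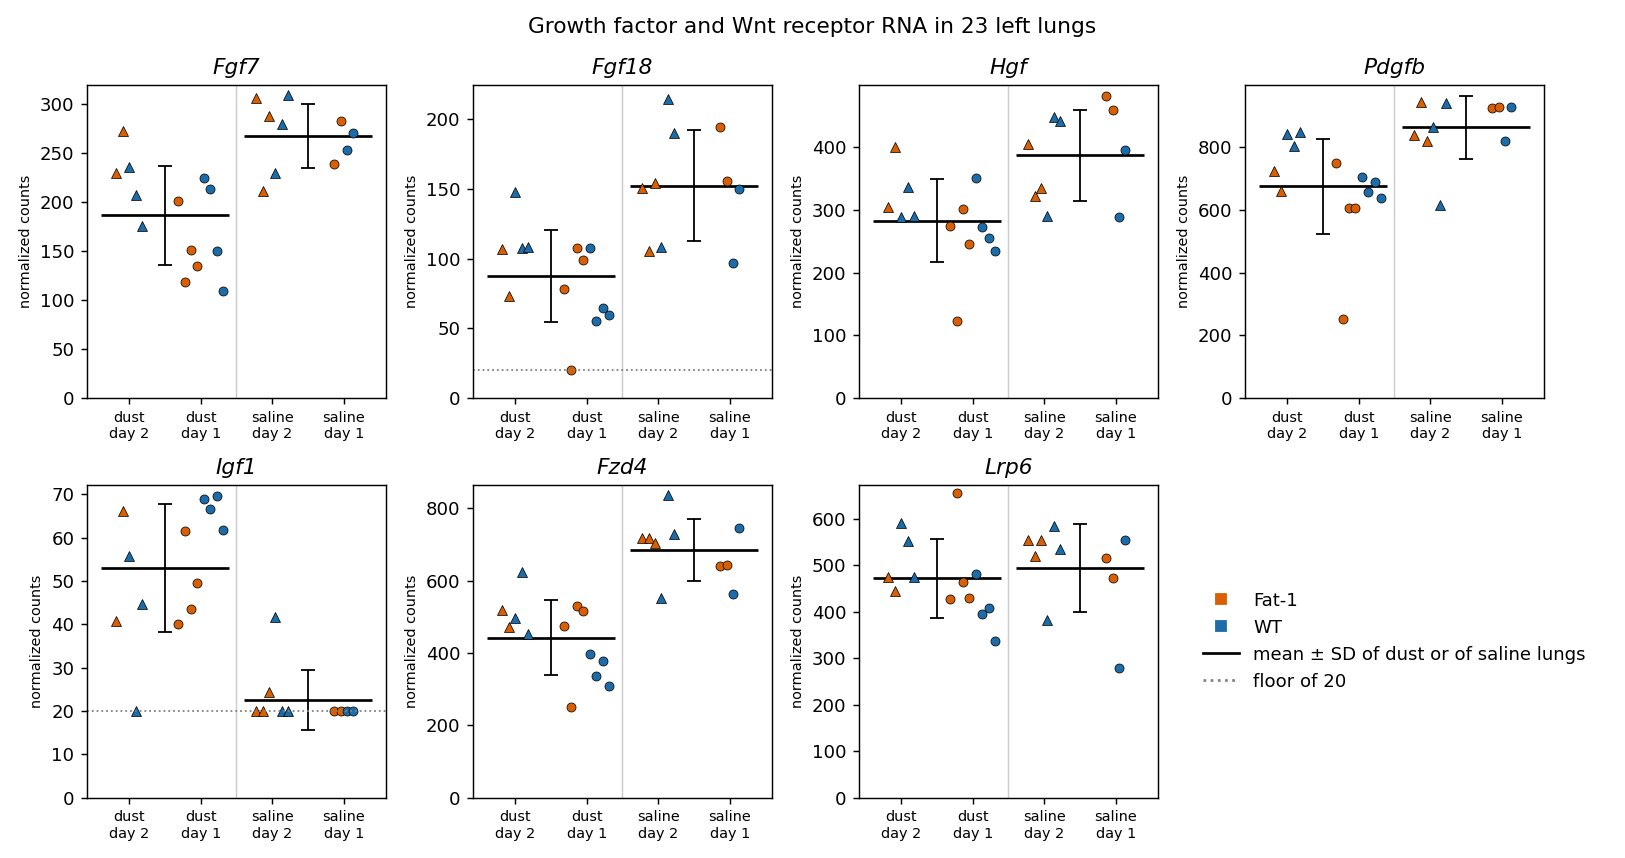
Normalized counts of each member in every lung, with dust lungs left of saline lungs and day 2 (triangles) left of day 1 (circles); orange is Fat-1, blue is WT, the black line and bar are the mean ± SD of the 13 dust or 10 saline lungs, and the dotted line is the floor of 20. For Fzd4, 12 of 13 dust lungs lie under every saline lung, while for Lrp6 no dust lung does; for Igf1, 8 of 10 saline lungs lie on the floor.

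Among the fibroblast growth factors, Fgf7, the keratinocyte growth factor, ran from 109.09 in the lowest to 271.82 in the highest dust lung with a median of 200.55 normalized counts, against 211.34 to 309.03 with a median of 274.91 in saline lungs. Below the lowest saline lung lay 8 of 13 dust lungs, and the other 5 fell among the saline lungs. The mean was 186 ± 50.3 in dust (SD, n = 13) and 267 ± 32.7 in saline (n = 10), which put Fgf7 at −0.57 on the log2 scale (SE 0.14, adjusted p = 0.00234). By group the order was 184 ± 59.8 in Fat-1 dust, 188 ± 45.5 in WT dust, 265 ± 38.7 in Fat-1 saline and 268 ± 29.9 in WT saline lungs, and within an exposure the genotypes differed by less than their SD.

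Fgf18 had the lowest fold change of the 7, and 1.83% of tested genes were lower. Dust lungs ran from 20 to 147.83 with a median of 99.15, against 97.23 to 214.88 with a median of 152.64 in saline lungs. The value of 20 is the floor, reached in Fat-1 female dust lung 2 of day 1, where it stands for anything up to 47.28. Below the lowest saline lung lay 6 of 13 dust lungs, and 7 of 10 saline lungs lay above the highest dust lung. The log2 fold change was −0.88 (SE 0.24, adjusted p = 0.00523), −0.78 with the floored value at its upper bound, and −0.70 (adjusted p = 0.00236) without that lung. Means were 80.9 ± 33.2 in Fat-1 dust, 93.0 ± 34.3 in WT dust, 152 ± 31.5 in Fat-1 saline and 152 ± 50.8 in WT saline lungs, so that the means of the 2 saline groups were alike.

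Hgf, whose product acts on epithelial and endothelial cells through the receptor Met, ran from 122.92 to 401.31 in dust lungs with a median of 289.08, against 288.45 to 481.61 with a median of 400.22 in saline lungs. The groups overlapped, and 6 of 13 dust lungs lay under every saline lung. The log2 fold change was −0.47 (SE 0.14, adjusted p = 0.00959), and −0.37 (adjusted p = 0.00425) with Fat-1 female dust lung 2 of day 1 left out. By level the groups ran 275 ± 91.2 in Fat-1 dust, 290 ± 41.9 in WT dust, 373 ± 78.7 in WT saline and 401 ± 71.3 in Fat-1 saline lungs, with neighbours of the same exposure within their SD. The receptor Met itself averaged 551 ± 98.2 in dust and 600 ± 126 in saline lungs, and did not pass (log2 fold change −0.14, adjusted p = 0.373).

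Pdgfb, the ligand that draws pericytes, ran from 250.56 to 847.35 in dust lungs with a median of 689.35, against 615.98 to 944.94 with a median of 894.72 in saline lungs. The overlap was wide, since only 3 of 13 dust lungs lay under every saline lung. That saline lung was WT male saline lung 1 of day 2, which carried a saturation message. The log2 fold change was −0.41 (SE 0.16, adjusted p = 0.0351), the least certain fall of the 5. It was −0.28 (adjusted p = 0.0117) with Fat-1 female dust lung 2 of day 1 left out, at 250.56 far below the next dust lung at 606.25. The call was lost with extraction day in the model (−0.38, adjusted p = 0.0578) and remained in 10 of the 23 fits that left out a lung, in which adjusted p ran from 0.0117 to 0.0723. Means were 599 ± 180 in Fat-1 dust, 740 ± 88.3 in WT dust, 834 ± 131 in WT saline and 891 ± 57.1 in Fat-1 saline lungs.

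The Wnt receptor Fzd4 separated the exposures best of the 7. Dust lungs ran from 250.56 to 623.05 with a median of 471.49, against 551.34 to 836.32 with a median of 710.74 in saline lungs. All dust lungs but WT female dust lung 2 of day 2, at 623.05, were below the lowest saline lung. The mean was 443 ± 104 in dust (SD, n = 13) and 685 ± 86.6 in saline (n = 10), which put Fzd4 at −0.64 on the log2 scale (SE 0.13, adjusted p = 0.00063). Leaving out any 1 lung kept the call, with log2 fold changes between −0.69 and −0.56. Means were 427 ± 108 in WT dust, 460 ± 106 in Fat-1 dust, 685 ± 39.2 in Fat-1 saline and 686 ± 124 in WT saline lungs, and genotypes of the same exposure lay within their SD.

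The co-receptor Lrp6 did not separate the exposures. Dust lungs ran from 338.17 to 654.76 with a median of 463.48, against 278.72 to 583.92 with a median of 527.55 in saline lungs. No dust lung lay below the lowest saline lung, and 2 lay above the highest. That lowest saline lung, WT female saline lung 1 of day 1, had a scale factor over 3, and the highest dust lung was Fat-1 female dust lung 2 of day 1. Within Fat-1 lungs 4 of 6 dust lungs lay below every saline lung and 1 above, and within WT lungs 0 of 7 below and 1 above. The log2 fold change was −0.03 with a 95% interval of −0.25 to 0.18 (SE 0.10, adjusted p = 0.816), which leaves room for a fall of 0.25. Its size and call depended on the scaling: after centring each lung on its median gene Lrp6 was called lower at −0.42 (adjusted p = 0.012), and on the scale of the housekeeping genes it was at −0.17 (adjusted p = 0.245). The 5 falling members kept their direction and their call under both scalings. Group means were 483 ± 86.4 in Fat-1 dust, 463 ± 89.1 in WT dust, 523 ± 34.0 in Fat-1 saline and 467 ± 131 in WT saline lungs, and no neighbours in that order differed by more than the larger SD.

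A ratio of genes above the floor within a lung does not depend on the scale factor, and Lrp6 served as the denominator for the 5 members that fell. These genes were chosen after seeing their fold changes in the same lungs, so lower ratios in dust followed largely from the choice. The ratios and their p-values are a description without the scale factor, and no further evidence of the falls. Fzd4 over Lrp6 was below the lowest saline ratio in all 13 dust lungs, at 0.956 ± 0.214 in dust and 1.42 ± 0.223 in saline lungs. The log2 difference was −0.60 (two-sided permutation test with 100000 resamples, p = 4e-05, adjusted p = 0.00015 over 5 ratios). The lowest ratio, 0.383, was in Fat-1 female dust lung 2 of day 1, and without it the difference was −0.50 with 12 of 12 dust lungs below. For Fgf18 over Lrp6 the ratio was 0.188 ± 0.058 in dust and 0.309 ± 0.056 in saline lungs (adjusted p = 0.00015 by permutation), with 7 of 13 dust lungs below. Its lowest ratio, 0.031 in Fat-1 female dust lung 2 of day 1, rests on a floored Fgf18 value that can stand for up to 47.28. Ratios to Lrp6 were also lower in dust for Fgf7 (log2 difference −0.50, adjusted p = 0.00573 by permutation) and Hgf (−0.41, adjusted p = 0.0099 by permutation). For Pdgfb the ratio was at −0.34 and did not pass (adjusted p = 0.0951 by permutation). With the doubtful lung left out it was at −0.18, and those of Fgf18 at −0.62, Fgf7 at −0.41 and Hgf at −0.28.

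**Figure D2:**
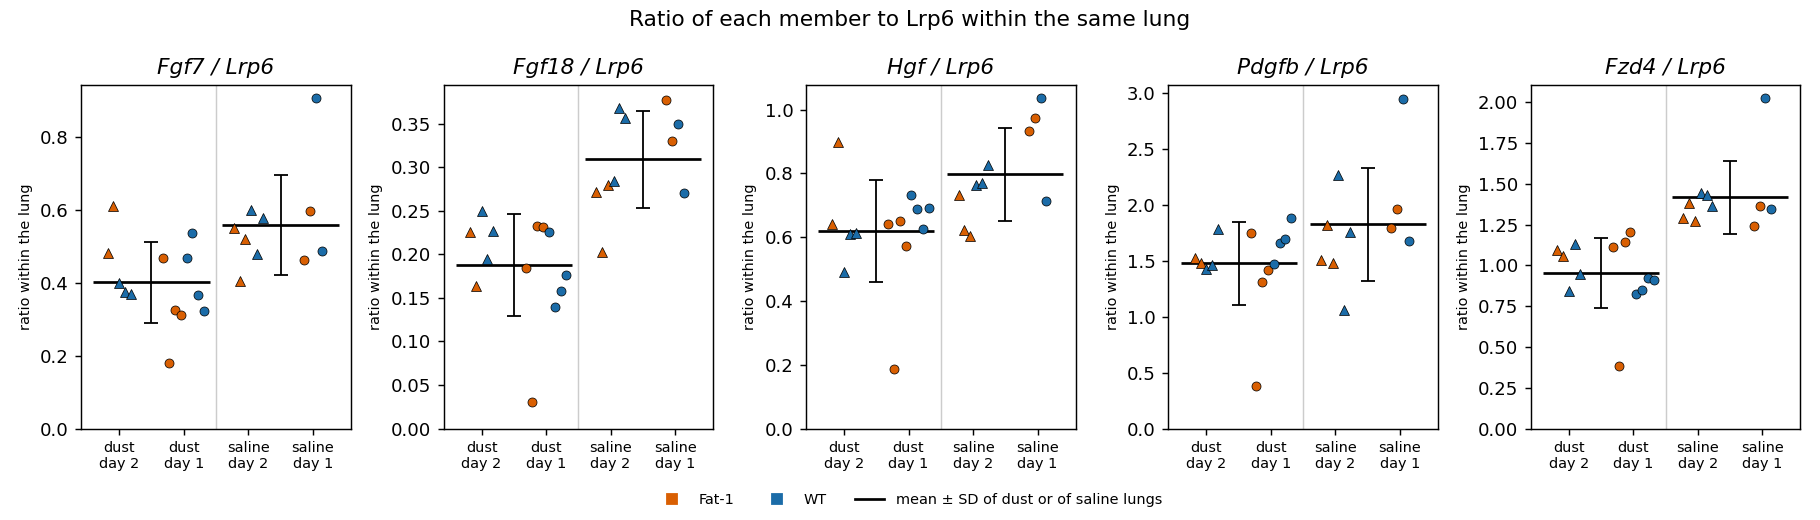
Ratio of each falling member to Lrp6 within the same lung, on linear axes that start at 0, with dust left of saline and day 2 (triangles) left of day 1 (circles); orange is Fat-1, blue is WT, and the line and bar are the mean ± SD of 13 dust or 10 saline lungs. All 13 dust lungs lie below the lowest saline lung for Fzd4, and the lowest point in each plot is Fat-1 female dust lung 2 of day 1, whose Fgf18 value is at the floor.

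Igf1 moved the other way, but its size cannot be read from the recorded values. Measured values in dust ran from 40.11 to 69.54 in 12 of 13 lungs, against 24.29 and 41.73 in the 2 saline lungs that were above the floor. At the floor were WT female dust lung 2 of day 2 and 8 of 10 saline lungs. With the floor taken as deposited the log2 fold change was 1.15 (SE 0.19, adjusted p = 0.000111). A floored value stands for anything up to 20 counts times the scale factor, or up to 20 where that factor is under 1. This bound reached 84.26 in the shallowest saline lung. With each floored value at its bound the log2 fold change was 0.40 (adjusted p = 0.11). Of the 8 floored saline lungs, 4 had a bound below 40.11, the lowest measured dust value. Among the 10 lungs with a scale factor under 1.3, where such bounds are low, Igf1 was at 61.4 ± 10.3 in 7 dust lungs and 28.7 ± 11.5 in 3 saline lungs. That log2 difference was 1.12 (two-sided exact permutation test, p = 0.0333; the smallest possible is 0.0167), and the cutoff was chosen after seeing the data. The days are not balanced here, since all 3 saline lungs and 3 of the 7 dust lungs are of day 2. On that day Igf1 was at 66.23, 55.85 and 40.69 in dust lungs, against 41.73, 24.29 and 20 in saline lungs, which overlap. Of the 3 saline lungs, WT female saline lung 1 of day 2 had unusual positive controls and WT male saline lung 1 of day 2 a saturation message.

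**Figure D3:**
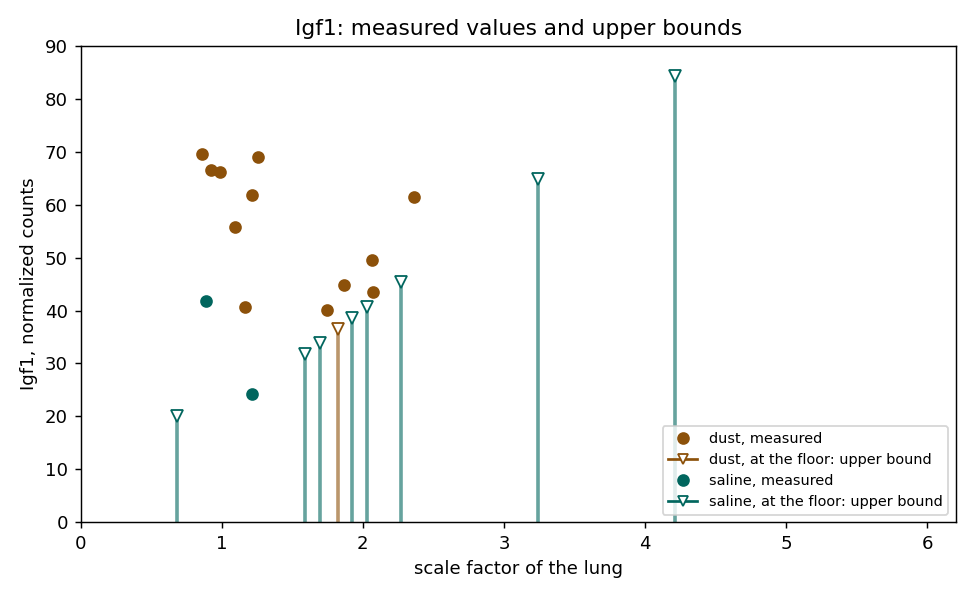
Igf1 in normalized counts against the scale factor of each of 23 lungs (no unit); filled circles are measured values, and open triangles mark the highest value a lung at the floor can hold, with the line below them spanning the allowed range. Bounds grow with the scale factor, to 84.26 in a saline lung, while the measured dust lungs lie between 40.11 and 69.54.

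RefSeq promoter windows of build GRCm38.p6 were matched by symbol for 5 of the 7 members (Fgf7, Fgf18, Hgf, Igf1 and Fzd4). The 250 bases before the start of Fzd4, Fgf18, Fgf7 and Igf1 are shown, as RefSeq's table gives that start, 5′ to 3′ on the gene's strand, because the first 3 fell in dust and Igf1 was called higher. They lie at chr7:89404116-89404365 (+) for Fzd4, chr11:33147401-33147650 (−) for Fgf18, chr2:126034408-126034657 (+) for Fgf7 and chr10:87860861-87861110 (+) for Igf1. The Igf1 window lies inside the annotated gene, which starts at 87858265 and has 21 transcripts, so it stands before a start within the gene and not before the gene's first base. Capitals mark matches, on either strand, to any of 5 motifs searched. These were the GC box, spelled GGGCGG, and the motif of NF-kappa-B. The TATA box was searched as the letters TATAAA. The motif of AP-1 was searched as the letters TGANTCA. That of TCF/LEF was searched as the letters CTTTGA.
Fzd4: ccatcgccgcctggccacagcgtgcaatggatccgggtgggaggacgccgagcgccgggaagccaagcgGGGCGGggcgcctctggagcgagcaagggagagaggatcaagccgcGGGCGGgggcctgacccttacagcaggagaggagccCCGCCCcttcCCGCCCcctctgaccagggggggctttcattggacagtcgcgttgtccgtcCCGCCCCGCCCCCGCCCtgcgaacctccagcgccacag
Fgf18: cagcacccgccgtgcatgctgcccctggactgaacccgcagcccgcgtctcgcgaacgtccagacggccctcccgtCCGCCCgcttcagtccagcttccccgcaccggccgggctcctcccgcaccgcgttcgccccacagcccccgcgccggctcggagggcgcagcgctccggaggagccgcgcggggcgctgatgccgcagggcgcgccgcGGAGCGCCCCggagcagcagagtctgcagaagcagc
Fgf7: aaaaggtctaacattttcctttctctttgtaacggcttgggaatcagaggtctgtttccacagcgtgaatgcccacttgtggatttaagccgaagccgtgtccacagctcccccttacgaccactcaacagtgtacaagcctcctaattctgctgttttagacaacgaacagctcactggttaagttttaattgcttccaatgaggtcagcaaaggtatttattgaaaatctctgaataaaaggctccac
Igf1: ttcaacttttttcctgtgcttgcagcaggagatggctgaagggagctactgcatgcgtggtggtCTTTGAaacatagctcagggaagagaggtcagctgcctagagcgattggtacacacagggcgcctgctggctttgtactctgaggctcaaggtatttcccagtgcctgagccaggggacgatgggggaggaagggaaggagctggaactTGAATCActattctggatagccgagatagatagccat

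The windows of members that fell together differed in these letters. Fzd4 held 7 GC boxes, of which a neighbouring pair shared a base, and was 72.8% G and C. Fgf18 held 1 GC box and 1 match to NF-kappa-B and was 77.2% G and C, while Fgf7, at 43.6%, held no match, nor did either of the 2 windows of Hgf. Igf1 held 1 match to AP-1 and 1 to TCF/LEF. Among 32851 windows of the same length, 32.7% hold a GC box, 12.4% the TATA letters, 6.75% those of AP-1, 13.8% those of TCF/LEF and 7.25% a match to NF-kappa-B. A match is a string of letters and no measured site.

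The dust response was then taken in each genotype. Among 6 dust and 5 saline lungs of Fat-1 mice, 5 members were called lower, where 5.91% of genes were, and Igf1 was called higher, as were 32.2% of genes. Fgf18 fell by 1.09 on the log2 scale (adjusted p = 0.0206), Pdgfb by 0.65 (adjusted p = 0.0321), Hgf by 0.63 (adjusted p = 0.0219), Fzd4 by 0.61 (adjusted p = 0.0179) and Fgf7 by 0.58 (adjusted p = 0.0316). All 6 Fat-1 dust lungs were below all 5 Fat-1 saline lungs for Fzd4 and for Pdgfb. How many of the panel genes separated these lungs as fully was not counted, so this is no trait particular to the 2 genes. With Fat-1 female dust lung 2 of day 1 left out the log2 fold changes were −0.73 for Fgf18, −0.39 for Pdgfb, −0.43 for Hgf, −0.45 for Fzd4 and −0.44 for Fgf7, the last no longer past the threshold (adjusted p = 0.0764). Over the 23 fits that left out a lung, Fgf18 and Fzd4 were called in 22, Hgf in 20, and Pdgfb and Fgf7 in 17, with the highest adjusted p when a Fat-1 female saline lung was left out. With the genotype taken from the characteristics, 1 member was called in Fat-1 lungs.

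Among 7 dust and 5 saline lungs of WT mice, Fzd4 fell by 0.67 (adjusted p = 0.0101) and Fgf7 by 0.57 (adjusted p = 0.0327), where 4.64% of genes were called lower, and Igf1 was called higher, as were 30.7%. For Fzd4 and for Fgf7, 6 of 7 WT dust lungs were below the lowest WT saline lung. Fgf18 was at −0.67 (adjusted p = 0.127), Hgf at −0.31 (adjusted p = 0.235) and Pdgfb at −0.17 (adjusted p = 0.58). Fzd4 was called in all 23 fits that left out a lung and Fgf7 in 16, with its highest adjusted p (0.106) when WT female saline lung 1 of day 1 was left out. Without the 2 lungs with scale factors over 3, no member passed in WT lungs, with Fzd4 at −0.66 (adjusted p = 0.053) and Fgf7 at −0.53 (adjusted p = 0.116).

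A response past the threshold in one genotype and not in the other is no difference between them, and the difference itself passed for no member. The dust response of Fat-1 minus that of WT was −0.48 for Pdgfb (95% interval −1.14 to 0.19), −0.42 for Fgf18 and −0.32 for Hgf, and −0.01 for Fgf7 and 0.06 for Fzd4 (adjusted p = 0.999 for each). These sizes depend on 1 lung: with Fat-1 female dust lung 2 of day 1 left out the differences were −0.22 for Pdgfb, −0.06 for Fgf18, −0.12 for Hgf, 0.13 for Fgf7 and 0.23 for Fzd4. By limma 0% of the 711 genes passed in this test, with 21 at an unadjusted p under 0.05. Fat-1 against WT within dust also gave 0% of genes (22 unadjusted), as did Fat-1 against WT within saline (10 unadjusted), with none of the members among them. In dust Pdgfb was at −0.37 (95% interval −0.81 to 0.06) and Fzd4 at 0.12 (−0.24 to 0.48). Leaving out 1 lung at a time moved Pdgfb between −0.51 and −0.12 and Fzd4 between 0.02 and 0.29, with the doubtful lung left out giving −0.12 for Pdgfb and 0.29 for Fzd4. On day 1 the Fat-1 dust lungs held 529.7, 516.4, 476.08 and 250.56 of Fzd4, against 396.59, 376.87, 337.27 and 307.87 in WT dust lungs, so that 3 Fat-1 lungs lay above all 4 WT lungs and the technically doubtful lung below them. On day 2 that order was not seen, with 518.51 and 471.49 in Fat-1 dust lungs, against 623.05, 498.23 and 451.67 in WT dust lungs. The highest of the day 1 values, 529.7, was that of Fat-1 male dust lung 1 of day 1, whose genotype is in dispute. Its title and characteristics did not match its extract code, and the title calls it WT. Weighting each lung by its fit put Fzd4 at 0.39 higher in Fat-1 dust (adjusted p = 0.016) and Igf1 at −0.53 (adjusted p = 0.0179), the only calls among members in any setting of this comparison.

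Between males and females 0% of genes passed by limma (17 at an unadjusted p under 0.05), and members lay between −0.11 for Fgf7 and 0.205 for Fgf18, male minus female. The dust response of males minus that of females also passed for 0% of genes (14 unadjusted). Lrp6 was the only member among those 14, at −0.61 (unadjusted p = 0.00795, adjusted p = 0.998). It stayed between −0.72 and −0.49 with any 1 lung left out. In Fat-1 lungs Lrp6 averaged 446 ± 16.9 in male dust, 515 ± 41.2 in male saline, 519 ± 120 in female dust and 536 ± 27.3 in female saline lungs, and in WT lungs 407 ± 68.9, 558 ± 24.7, 505 ± 85.3 and 330 ± 72.9 in the same order. Both WT female saline lungs, at 278.72 and 381.77, are among the 6 technically doubtful lungs, and their part in the difference was not tested.

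**Figure D4:**
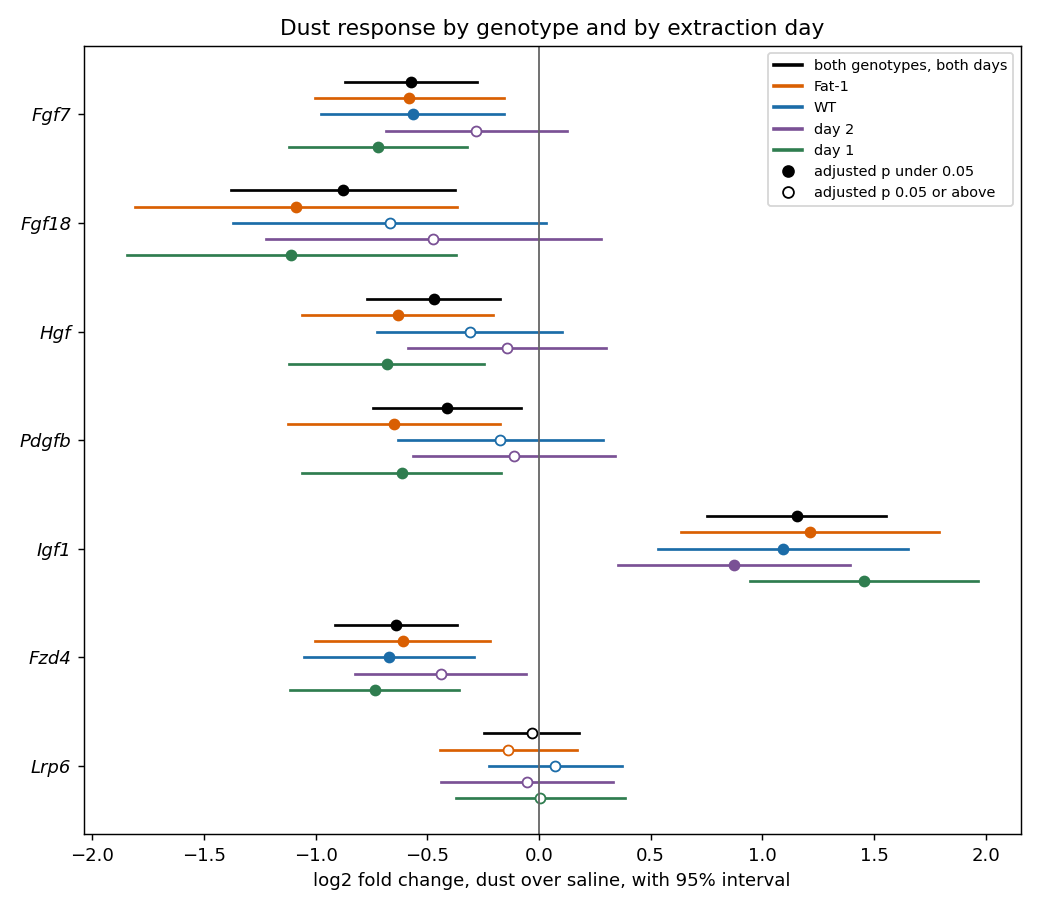
Log2 fold change of dust over saline with its 95% interval for each member, over all lungs, in each genotype and on each day of extraction; filled points passed an adjusted p of 0.05. The 5 falling members are left of 0 in every row with wider distances on day 1 than on day 2, Lrp6 straddles 0, and the Igf1 points take floored values as deposited.

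The dust response was also taken on each day of extraction. On day 2, with 5 dust and 6 saline lungs, no falling member passed, where 0.563% of genes were called lower, and Igf1 was called higher, as were 16.2% (log2 fold change 0.87, adjusted p = 0.0223; 0.63, adjusted p = 0.0738, with floored values at their bound). On day 1, with 8 dust and 4 saline lungs, all 5 falling members passed, where 11% of genes were called lower, and Igf1 was called higher, as were 41.1% (1.46 with the floor as deposited, 0.02 and adjusted p = 0.934 with floored values at their bound). The day 2 values were −0.44 for Fzd4 (adjusted p = 0.113), −0.28 for Fgf7, −0.47 for Fgf18, −0.14 for Hgf and −0.11 for Pdgfb. On day 1 they were −0.74 for Fzd4 (adjusted p = 0.00241), −0.72 for Fgf7 (adjusted p = 0.00409), −1.11 for Fgf18, −0.68 for Hgf and −0.61 for Pdgfb. These fits share their estimate of spread over both days. Fits of the lungs of day 2 alone called 0 members, where 1 of all 711 genes was called. Those of day 1 alone called 3 members (Fgf7, Igf1 and Fzd4), where 331 of 711 genes were called.

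Fzd4 shows the days lung by lung. On day 2 its dust lungs held 623.05, 518.51, 498.23, 471.49 and 451.67, against a range of 551.34 to 836.32 with a median of 717.2 in saline lungs, and 4 of 5 dust lungs were below all saline lungs. On day 1 its 8 dust lungs ran from 250.56 to 529.7 with a median of 386.73, against 746.89, 644.62, 639.58 and 563.93 in saline lungs, and all 8 were below. The ratio to Lrp6, chosen after seeing the data, was lower on both days, with all dust lungs below all saline lungs. On day 2 it was 1.015 ± 0.117 in dust and 1.36 ± 0.071 in saline lungs (exact permutation test, p = 0.00433, adjusted p = 0.0216 over 5 ratios). On day 1 it was 0.919 ± 0.259 in dust and 1.49 ± 0.357 in saline lungs (exact permutation test, p = 0.00404, adjusted p = 0.0101). Both p-values are the smallest that test can give with these numbers of lungs. Since the genes were chosen after seeing these lungs, they are a description and no further evidence of a fall on either day. Fzd4 itself did not pass on day 2 by limma (adjusted p = 0.113).

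For Fgf7, day 2 dust lungs held 271.82, 235.43, 229.03, 206.47 and 175.44, against 211.34 to 309.03 with a median of 283.76 in saline lungs, which overlap. Day 1 dust lungs ran from 109.09 to 224.65 with a median of 150.64, against 282.28, 270.15, 252.8 and 238.88 in saline lungs, and all 8 were below all 4. For Pdgfb, too, all 8 day 1 dust lungs were below all 4 saline lungs, at 250.56 to 748.13 against 819.97 to 928.5. On day 2 its 5 dust lungs lay at 659.3 to 847.35, all above the lowest saline lung at 615.98. How many panel genes separated the day 1 lungs as fully as Fzd4, Fgf7 and Pdgfb did was not counted.

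Day 2 minus day 1 within dust was positive for all 5 falling members and passed for none. It was 0.64 for Fgf18, 0.51 for Fgf7 (adjusted p = 0.0653), 0.41 for Hgf, 0.40 for Fzd4 and 0.37 for Pdgfb, where 0.844% of genes were called higher and 10.3% lower. With Fat-1 female dust lung 2 of day 1 left out the values were 0.35 for Fgf18, 0.43 for Fgf7, 0.26 for Hgf, 0.27 for Fzd4 and 0.19 for Pdgfb. Fgf7 passed in this comparison with a common floor in all lungs (adjusted p = 0.0489), on the housekeeping scale (0.54, adjusted p = 0.0458) and after median centring (0.67, adjusted p = 0.0265). Within saline no member passed, where 0.141% of genes did, and members lay between −0.13 for Hgf and 0.23 for Lrp6. The dust response of day 2 minus that of day 1 passed for 1.27% of genes and for no member, with values of 0.30 for Fzd4 to 0.64 for Fgf18 among the 5 (adjusted p = 0.297 to 0.495), and of 0.15 for Fzd4 to 0.37 for Hgf with that lung left out. The lungs of day 1 and day 2 were different mice, and the day went largely with the recorded stage position of the cartridge. Of the day 1 lungs, 10 were at position 2 and 2 at position 3, against 2 and 9 of the day 2 lungs. Scale factors of saline lungs ran from 1.93 to 4.21 on day 1 and from 0.682 to 2.03 on day 2. The day cannot be fully told apart from these.

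The rest of their pathways was read from lists of panel genes. Among 6 fibroblast growth factor genes 4 fell and 0 rose in dust, at a median of −0.48. Besides the 2 members these were Spry2, an inhibitor of receptor tyrosine kinase signalling that FGFs induce (216 ± 56.3 in dust, 312 ± 66.4 in saline, log2 fold change −0.54, adjusted p = 0.0125), and Fgf10, a mesenchymal ligand of the same epithelial receptor as Fgf7 (131 ± 33.2 in dust, 169 ± 35.8 in saline, −0.42, adjusted p = 0.0404; 0.0694 with Fat-1 female dust lung 2 of day 1 left out). Fgf2 was at 0.29 and the receptor Fgfr1 at 0.04 (adjusted p = 0.299 and 0.77). Of 9 genes of the HGF, IGF and EGF families 1 rose, Igf1, and 2 fell, Hgf and Tgfa, a ligand of the EGF receptor (138 ± 31.8 in dust, 199 ± 47.0 in saline, −0.53, adjusted p = 0.00969). Areg, another ligand of the EGF receptor, was at 0.64 (adjusted p = 0.0625), but was called higher with Fat-1 female dust lung 2 of day 1 left out (0.80, adjusted p = 0.0102) and with a common floor (0.42, adjusted p = 0.0114). Egf was at −0.30 (adjusted p = 0.27) and the list's median at −0.11.

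Among 7 PDGF and VEGF genes 3 fell and 0 rose, at a median of −0.25. With Pdgfb these were Vegfa, the main endothelial growth factor (3031 ± 1010.0 in dust, 4784 ± 668 in saline, −0.77, adjusted p = 0.0108), and its receptor Flt1 (450 ± 131 in dust, 597 ± 117 in saline, −0.46, adjusted p = 0.0365; 0.0514 with Fat-1 female dust lung 2 of day 1 left out). Pdgfrb, the pericyte receptor of PDGF-B, was at −0.21 (adjusted p = 0.1) but was called lower with Fat-1 female dust lung 2 of day 1 left out (−0.28, adjusted p = 0.00955). Pdgfra was at −0.25 (adjusted p = 0.145) and Pdgfa at −0.16 (adjusted p = 0.221).

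Of 7 tested Wnt pathway genes 2 fell and 1 rose, with a median of −0.03. Lrp5, the paralogue of Lrp6 and the other co-receptor of Frizzled proteins, fell with Fzd4: it was at 623 ± 157 in dust and 873 ± 126 in saline lungs (−0.55, adjusted p = 0.00814). The ratio of Lrp5 to Lrp6 within a lung was 1.35 ± 0.322 in dust and 1.90 ± 0.834 in saline lungs, a log2 difference of −0.47 that missed the threshold (permutation test, p = 0.0116, adjusted p = 0.0543 over 5 ratios). Myc, a target of beta-catenin among other inputs, rose by 0.36 (adjusted p = 0.0469) but was at 0.23 on the housekeeping scale (adjusted p = 0.227) and at −0.03 after median centring (adjusted p = 0.892). Fzd6 was at −0.31 (adjusted p = 0.28) and Ctnnb1, which encodes beta-catenin, at −0.03 (adjusted p = 0.83). After median centring, with 244 of all 711 genes called lower against 71 on the deposited scale, the lower counts were 5 of 6 fibroblast growth factor genes, 7 of 7 PDGF and VEGF genes, 6 of 9 HGF, IGF and EGF genes and 5 of 7 Wnt genes.

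In whole tissue, fewer cells of a type and less RNA per cell cannot be told apart, and markers of several cell types moved with the exposure. All 5 tested endothelial markers fell (Cdh5, Flt1, Tek, Thbd and Ptprb), with a median of −0.87 and a summed level of 2645 to 10077 in dust and 9463 to 12714 in saline lungs, the lowest sum being that of Fat-1 female dust lung 2 of day 1. Fzd4 divided by Cdh5, the endothelial junction cadherin, was 0.414 ± 0.074 in dust and 0.442 ± 0.075 in saline lungs, a log2 difference of −0.09 (permutation test, p = 0.419). Alone, Fzd4 was at −0.64 and Cdh5 at −0.58. The other endothelial markers ran from −0.46 for Flt1 through −0.87 for Ptprb and −0.96 for Tek to −1.085 for Thbd. Ratios to these were not taken, so the small difference holds for Cdh5 only. Pdgfb over Cdh5 was 0.637 ± 0.146 in dust and 0.555 ± 0.088 in saline lungs (0.17, permutation test, p = 0.247, adjusted p = 0.308). With Fat-1 female dust lung 2 of day 1 left out the log2 differences were 0.26 for Pdgfb over Cdh5 (permutation test, p = 0.0202, adjusted p = 0.0504) and −0.05 for Fzd4 over Cdh5.

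Of 4 fibroblast markers 2 rose, the collagens Col1a2 and Col3a1, and 0 fell on the deposited scale, with a summed level of 4382 to 11196 in dust and 3253 to 5241 in saline lungs. Pdgfrb was called lower with the doubtful lung left out, and after median centring both Pdgfra and Pdgfrb were lower and both collagens higher. Pdgfra, a surface receptor of lung fibroblasts, was the denominator for the ligands that fibroblasts make. Fgf7 over Pdgfra was 0.168 ± 0.043 in dust and 0.202 ± 0.023 in saline lungs (log2 difference −0.30, permutation test, p = 0.0217, adjusted p = 0.0543), and Hgf over Pdgfra 0.258 ± 0.062 in dust and 0.293 ± 0.046 in saline lungs (−0.21, permutation test, p = 0.144; −0.13 with the doubtful lung left out). Beside Igf1, all 9 markers of monocytes and interstitial macrophages rose, with a summed level of 3715 to 20309 in dust and 2520 to 3734 in saline lungs, and 5 of 6 alveolar macrophage markers rose, with sums of 6107 to 40377 in dust and 6648 to 20446 in saline lungs. Platelets, which also carry PDGF-B, had 2 of 3 markers higher, with sums of 283 to 1099 in dust and 219 to 341 in saline lungs. Neutrophil markers rose in 5 of 7, T cell markers in 2 of 2, B cell markers in 1 of 2 and epithelial markers in 1 of 2, and 0 fell in any of these lists on the deposited scale. Beyond the ratios given, the part of these cells in the members' values was not tested.

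Across lungs the 5 falling members were high and low together, in part through the exposure and 1 lung. Pearson's r between pairs of the 5 ran from 0.63 (Fgf7 and Pdgfb) to 0.88 (Fgf18 and Fzd4) over 23 lungs, and from 0.44 (Hgf and Pdgfb) to 0.84 (Fgf18 and Fzd4) with the doubtful lung left out. For deviations from the group means, also with that lung left out, they ran from 0.11 (Fgf7 and Fzd4, and Hgf and Fzd4) to 0.64 (Fgf7 and Hgf). With Fzd4, Lrp6 was at 0.29 over 23 lungs, but at 0.59 with the doubtful lung left out and at 0.76 for deviations without that lung. Igf1 was at −0.86, −0.89 and −0.71 with Fzd4 in the same order. Cd36 was among the 3 closest genes of Fzd4, Fgf18 and Hgf, at 0.94, 0.90 and 0.78 with the doubtful lung left out. Over 23 lungs the panel genes most like Fzd4 were Thbd, Cd36 and Tek (Pearson r of 0.94, 0.93 and 0.92; 0.96, 0.92 and 0.87 for deviations from the 8 group means), of which Thbd and Tek are endothelial. Fgf18 was most like Cd36, Dpp4 and Vegfa (0.95, 0.95 and 0.93), Hgf like Dpp4, Cd36 and Tspan7 (0.89, 0.89 and 0.86), and Fgf7 like Cav1, Nox4 and Hpgd (0.82, 0.80 and 0.80). With the doubtful lung left out these were 0.90, 0.90 and 0.87 for Fgf18, 0.78, 0.78 and 0.70 for Hgf, and 0.80, 0.76 and 0.75 for Fgf7. Pdgfb was most like Vegfa, Cnksr1 and Yap1 (0.90, 0.90 and 0.89), but with Fat-1 female dust lung 2 of day 1 left out these were 0.68, 0.68 and 0.60. Over 23 lungs Lrp6 had no close match, with Kitl, Mertk and Gata6 at 0.65, 0.65 and 0.64 (0.72, 0.79 and 0.50 for deviations from the group means). Igf1, with 9 of 23 lungs at the floor, was most like the myeloid genes Sirpa, Cd68 and Csf2ra (0.97, 0.94 and 0.94). These coefficients are descriptions over lungs that share an exposure and an array, chosen as the highest of 469 or 470 genes above the floor in all lungs.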

How the data were processed

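The deposited values are a signal: nCounter probe counts that the authors scaled by a factor of each lung's own, as the file headers (normalized data) and the numbers show, since 100.0% of values above the floor were whole multiples of a step per lung (tolerance 0.1 steps). Counts under 20 before scaling, and values under 20 after it, were recorded as 20 without scaling, and no count model was fitted because of that floor. Which genes set the factor is not stated in the sources at hand. Groups came from the extract code of each lung; according to the labels' protocols it gives extraction date, genotype, sex, exposure and replicate. Each lung stands for its own mouse, since only left lungs were used.

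The scale was log2(value + 1), and fits were made in R 4.3.3 with limma 3.58.1. A model of 8 group means (genotype, sex, exposure) gave 8 contrasts, and a model of genotype, exposure and day with sex as a covariate gave 5 more. Tests were two-sided with empirical Bayes moderation and Benjamini-Hochberg adjustment over the 711 genes above the floor in at least 1 lung. Ratios within a lung were tested by permutation of lungs (scipy 1.17.1, Python 3.11.15, numpy 2.4.6, pandas 2.3.3, matplotlib 3.10.9). The fit was tested on simulated data. Alternatives were another pseudocount of 20, other filters, floors and scalings, day, cartridge or replicate number in the model, each day alone, groups by the characteristics, lungs in doubt left out, each lung left out, and array weights.

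The members, gene lists and alternatives were chosen with earlier results of these data known. The text names all 7 members, up to 6 tested genes of each pathway list with the smallest p in dust against saline, and the 3 genes most like each member. Promoter letters are RefSeq's.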

Additional observations from a re-analysis of the deposited data

Results flagged for a closer look

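In groups of 5 to 7 lungs of the same genotype and exposure, 28 in all over the 7 members, 5 values stood farther from their group than Dixon's 95% limit allows, where chance gives about 1 in 20. Fat-1 female dust lung 2 of day 1 held 3 of them. Its Fzd4 value of 250.56 was the lowest of 6 Fat-1 dust lungs, where the others ran from 471.49 to 529.7, and its Pdgfb value of 250.56 was also the lowest, where the others ran from 606.25 to 748.13. Its Lrp6 value of 654.76 was the highest of the 6, where the others ran from 427.26 to 474.33. A neighbouring pair of positive control probes had a ratio of 1.07 in this lung, against 2.66 to 3.51 in the other lungs, and the part of that in its values was not tested.

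The other 2 values are those of Igf1 in saline lungs: 24.29 in Fat-1 male saline lung 2 of day 2, and 41.73 in WT female saline lung 1 of day 2. Each stood out because the 4 other saline lungs of its genotype were at the floor of 20, where values have no order. The WT lung also had an unusual positive-control sum of 64880 counts.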

How the results depend on the processing

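In dust against saline, Fzd4 and Fgf7 kept their direction and call in 40 of 41 alternatives each, Fgf18 in 38 of 40, Igf1 in 38 of 41, Hgf in 37 of 41 and Pdgfb in 22 of 41. For Igf1 most alternatives kept the floor as deposited. Its call was lost with floored values at their bound, and with a common floor of 84.26, which lies above its highest recorded value of 69.54. Of the 7 members, 6 were called, as were 379 of 711 genes, and leaving out 1 lung gave 5 to 6 members. The lungs of day 1 alone gave 3, where 331 of 711 genes passed, and those of day 2 alone 0, where 1 gene of the panel passed. In WT lungs 3 were called (1 to 4 with 1 lung left out), but 5 after median centring, 1 on day 1 alone, 0 on day 2 alone and 0 without scale factors over 3. In Fat-1 lungs 6 were called (3 to 6), but 1 on day 1 alone, 0 on day 2 alone, 1 with the replicate block, 1 with groups by the characteristics, 1 without lungs whose labels differ and 2 without scale factors over 3. For dust on day 1, 6 were called (3 to 6), and 3 with the replicate block. For dust on day 2, 1 was called (0 to 2), but 0 with genes above the floor in all lungs, 0 with a common floor, 0 with floored values at their bound, 0 without lungs whose labels differ, 0 without saturated lungs, 2 on the housekeeping scale, 2 with array weights and 3 without unusual positive controls, where Fzd4 was at −0.57 (adjusted p = 0.003) and Fgf18 at −0.72 (adjusted p = 0.0243). Fat-1 against WT in dust gave 0, and 2 with array weights. Day 2 against day 1 in dust gave 0, and 1 each with a common floor, housekeeping scaling and median centring; in saline it gave 0, and 1 with floored values at their bound. These and the remaining comparisons gave 0 members with any 1 lung left out. The panel moved with the setting too: in dust against saline 1 of 711 genes was called with day 2 alone and 453 with array weights. For the other comparisons the panel's share in each setting is not given here. Their counts therefore describe the settings and are no result about the members. The cause of these moves was not tested.

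Values turned round past the threshold in 2 results. Igf1 on day 2 against day 1 in saline was at −0.82 (adjusted p = 0.0311) with floored values at their bound, which follows the scale factors, and Lrp6 in dust on day 1 was at −0.47 (adjusted p = 0.0332) after median centring. That centring moved the panel from 308 higher and 71 lower calls to 202 higher and 244 lower, and its median to −0.13, against 0.26. Replicate numbers within a day did not pair the lungs: same-numbered lungs correlated at −0.45 to 0.74 (median −0.01, 65 pairs, 24 over 0.1). With the replicate block the panel gave 277 calls, against 379, and Pdgfb (−0.25, adjusted p = 0.225) and Hgf (−0.31, adjusted p = 0.0716) were not called. Alternatives with floored values at their bound, ratios within a lung and deep lungs for Igf1 were chosen after seeing the data. The floor limits Igf1, and Fgf18 in 1 lung.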
